A study of Rattus norvegicus with 8 samples.

Results

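Genes of calcium entry, storage and clearance were examined in thoracic spinal cord after injury. The group holds the subunits of voltage-gated calcium channels, the calcium release channels of the endoplasmic reticulum, the store-operated entry proteins, the calcium pumps and the sodium-calcium exchangers. Members were all genes whose symbol begins with Cacn, together with Ryr1 to Ryr3, Itpr1 to Itpr3, Orai1 to Orai3, Stim1 and Stim2, the Atp2a and Atp2b pumps and Slc8a1 to Slc8a3, wherever a probe set of the array was annotated to that symbol alone. This gave 44 members of 18166 genes tested, each with 1 probe set. Of 47 symbols in the 12 classes, Cacna1s, Cacng8 and Atp2a1 had no such probe set and were not analysed here.

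The samples were 8 pieces of thoracic cord from male rats of the Long Evans strain, aged about 175 days and weighing 400 g, 4 labelled as thoracic spinal cord injury (SCI) and 4 as sham-injured, which had a laminectomy alone. The labels name no transgene, drug or other strain. All rats recovered for 4 weeks on chow with 17% fat and then ate a high-fat diet with 40% fat, for a total given as 8 weeks, so both groups share the diet and no comparison concerns it. The labels name the piece of cord once as thoracic segments 10 to 11 and once as 11 to 12, and do not give the level of the lesion or its distance from that piece. Total RNA of whole tissue was hybridised to Affymetrix Rat Gene 2.0 ST arrays, and values are log2 signals, on which a difference of 1 is a doubling.

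Calcium enters neurons through voltage-gated channels, which open on depolarisation. A pore-forming alpha1 subunit sets the type of current, alpha2delta and beta subunits carry the pore to the membrane and tune its gating, and several gamma subunits attend AMPA-type glutamate receptors instead. Ryanodine and inositol trisphosphate (IP3) receptors release calcium from the endoplasmic reticulum. When that store empties, STIM proteins in its membrane open Orai pores in the plasma membrane, a route prominent in immune cells. SERCA pumps refill the store, and plasma membrane calcium pumps (PMCA) and sodium-calcium exchangers expel calcium from the cell. In the cord these genes serve transmitter release, motor neuron firing and the handling of pain signals.

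In injured cord, 13 of the 44 members were lower than in sham and 0 were higher at an adjusted p under 0.05 (limma, Benjamini-Hochberg over all 18166 genes). Lower calls thus made up 29.5% of the members, against 7.06% of all genes, and higher calls made up 7.10% of all genes. The lower members were the alpha2delta genes Cacna2d1, Cacna2d2 and Cacna2d3, the beta genes Cacnb1 and Cacnb4, the AMPA receptor partners Cacng2 and Cacng3, the ryanodine receptor Ryr2, the pumps Atp2a2, Atp2b2 and Atp2b3 and the exchangers Slc8a2 and Slc8a3. Their log2 differences, SCI minus sham, lay between -0.64 and -0.32, with a median of -0.55. Over all 44 members the median was -0.19, against -0.01 over all genes. A negative difference was seen in 30 members (68.2%), against 52.1% of all genes. At an unadjusted limma p under 0.05, 18 members were lower and 3 higher, where 14.2% and 12.5% of all genes were. The 3 higher ones were Orai1, Orai3 and Stim1. All injured arrays lay below all sham arrays in 16 members, as they did in 10.9% of all genes. All 13 called members lay above the median level of all genes of 4.74, as did 31 of the 44. The share of 7.06% counts genes on both sides of that level, so it is an unlike background. With genes below it left out of the fit, 15 of the 31 members were lower and 1 higher. In that fit 1814 genes in all were lower and 1367 higher, against 1282 and 1290 in the main fit.

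**Figure D1:**
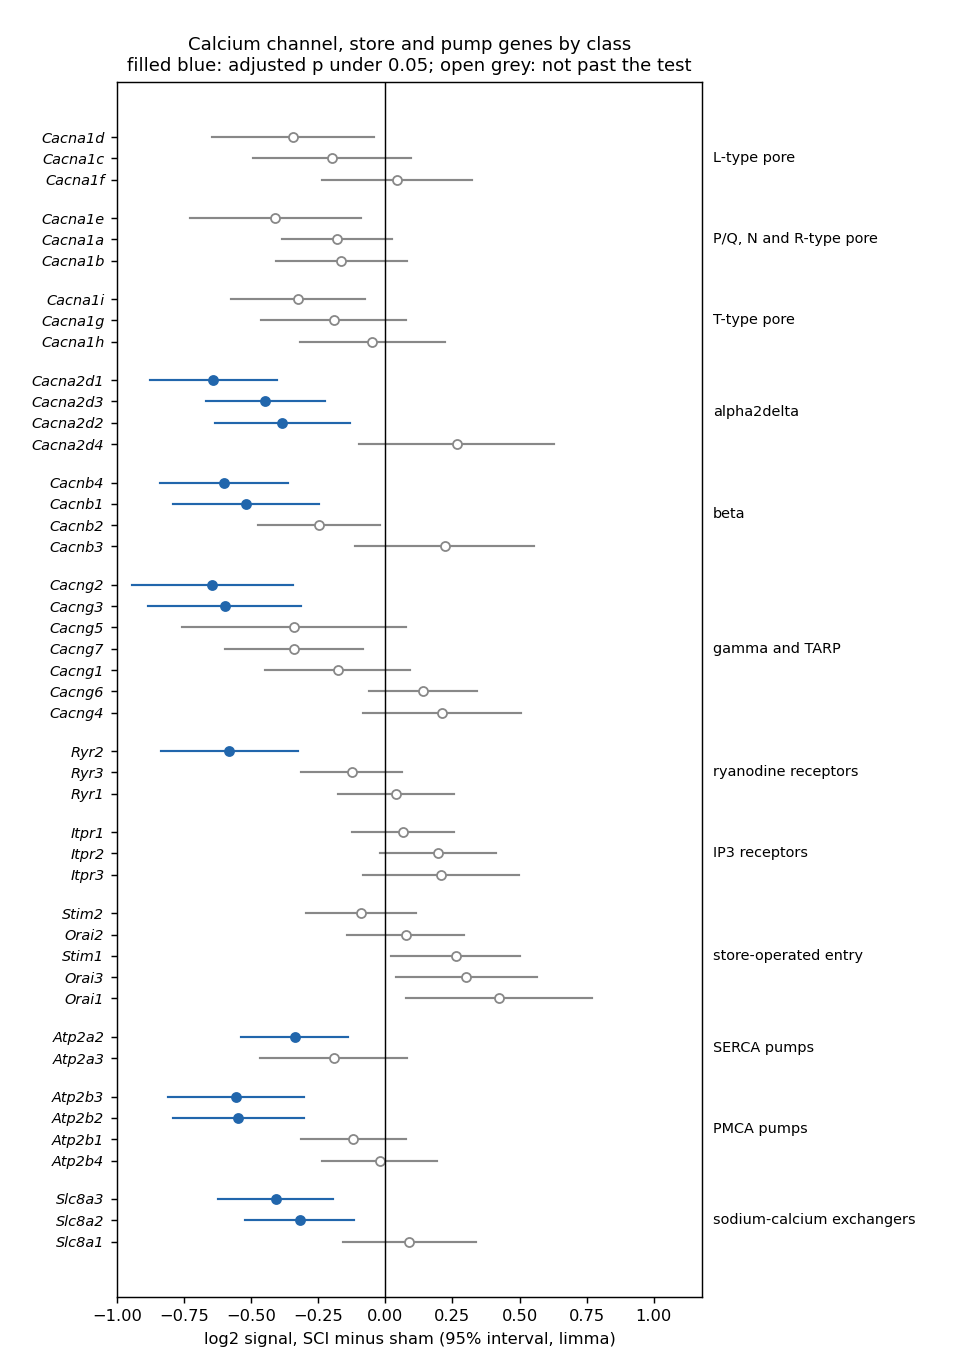
Difference in log2 signal between SCI and sham (horizontal axis) for the 44 members in their 12 classes, with the 95% interval of the limma fit. The 13 filled blue points, all to the left of 0, passed the test. The 9 pore-forming genes and the 8 IP3 receptor and store-operated entry genes hold none of them, and 7 of these 8 lie to the right of 0.

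The count depended on which arrays were included. SCI 3, sham 1 and sham 2 had the smallest SDs of values over all probe sets (2.04 to 2.05, against 2.08 to 2.11 in the others). Without these 3 arrays, 0 of the 13 passed, with adjusted p of 0.064 to 0.28 at 3 arrays against 2, while all 13 differences stayed negative (-0.64 to -0.33). Without SCI 2 the lower members numbered 8, and with the sample number in the title as a covariate 6. These title numbers were mostly lower in SCI than in sham arrays, so this covariate overlaps with the group. Of the 13, 8 passed whichever 1 array was left out. Among the injured arrays, SCI 2 held the lowest value of 9 of the 13 genes and SCI 4 the highest of 8, and among the sham arrays sham 2 held the highest of 7.

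Most markers of neurons, oligodendrocytes, myeloid cells and fibroblasts differed between the groups, and most of the other cell types listed were not called. Of 12 neuronal markers, all 12 were lower (median -0.49, from -0.62 for the neurofilament gene Nefm to -0.36), and their summed linear signal was 8556 to 10374 in SCI arrays and 12481 to 14084 in sham arrays. That sum was lowest in SCI 2 (8556), highest among the injured arrays in SCI 4 (10374) and highest of all in sham 2 (14084). Of 12 myeloid markers, all 12 were higher (median 1.65, Cd68 by 4.17), with sums of 4482 to 5976 against 1896 to 2346, SCI 2 again at the extreme (5976). Of 11 oligodendrocyte markers 9 were lower (median -0.59), and 4 of 6 fibroblast markers were higher. Of 7 lymphocyte markers, Cd8a (1.48) and the dim Cd3g (0.49) were higher and 5 were not called, Cd3e among them. Of 9 astrocyte markers, Gfap (0.81) and Gja1 (0.59) were higher and Slc1a2 (-0.39) was lower. A single marker was higher among 5 of Schwann cells (Ncmap, 0.91), 7 of endothelium (Cdh5, 0.68) and 7 of smooth muscle and pericytes (Myh11, 0.47). In whole tissue, fewer cells of a type and less RNA per cell cannot be told apart. No marker reads 0 on this scale, detection calls were not used, and the part of the cell mix in the members' differences was not tested.

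The pore-forming alpha1 genes did not pass. Of 9 measured, 0 were called by limma, 3 had an unadjusted p under 0.05 (Cacna1d, Cacna1e and Cacna1i), and the exact test gave its smallest p to 1 (Cacna1e). Of the 9 differences, 8 were negative, as were 52.1% of those of all genes, and the median was -0.19. Cacna1e, the pore of the R-type current, read 5.88, 5.39, 5.47 and 5.83 in SCI 1 to SCI 4 and 5.89, 6.34, 5.95 and 6.04 in sham 1 to sham 4. Every injured array thus lay below every sham array, SCI 1 by a narrow margin, and the difference was -0.41 (SE 0.14, adjusted p = 0.088). It passed with genes below the median level left out of the fit (adjusted p = 0.032) and with a trended, robust prior (0.043). Cacna1a, the P/Q-type pore of presynaptic terminals, differed by -0.18 (95% interval -0.39 to 0.03), and Cacna1b, the presynaptic N-type pore, by -0.16 (-0.41 to 0.08).

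Among L-type pores, which support long-lasting calcium currents, Cacna1d read 3.91, 4.20, 4.42 and 4.23 in the injured arrays and 4.33, 4.80, 4.43 and 4.58 in sham. The groups overlapped through SCI 3, and the difference was -0.34 (SE 0.14, adjusted p = 0.13). Cacna1c differed by -0.20 (95% interval -0.49 to 0.10) and Cacna1f, known from the retina, by 0.04 (-0.24 to 0.32). Both, like Cacna1d, were below the median level of all genes, where RMA compresses differences.

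T-type pores open near the resting potential. Cacna1i read 4.47, 4.70, 4.42 and 4.47 in SCI and 4.93, 4.86, 4.59 and 4.97 in sham, so that SCI 2 lay above sham 3 and the other arrays were parted. Its difference was -0.33 (SE 0.11, adjusted p = 0.084), and it passed without sham 3 (adjusted p = 0.039). Cacna1g differed by -0.19 (95% interval -0.46 to 0.08) and Cacna1h by -0.05 (-0.32 to 0.22).

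The subunits that accompany the pore held 7 of the 13 calls. Of 15 auxiliary genes, 7 were lower by limma (46.7%, against 7.06% of all genes) and 0 higher. At an unadjusted p under 0.05, 0 were higher, and the median difference was -0.34. The alpha2delta class held 3 of these 7 calls. Cacna2d1, the alpha2delta subunit that binds gabapentin and pregabalin (probe set 17788981), read 5.54, 5.25, 5.42 and 5.69 in SCI and 6.10, 6.10, 6.16 and 6.11 in sham. The sham arrays were nearly level, and the highest injured array stayed well below them. It fell by 35.9%, a log2 difference of -0.64 (SE 0.11, adjusted p = 0.0031), which was the smallest p among the members.

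Cacna2d3, a further alpha2delta subunit of neurons (probe set 17709647), read 6.21, 6.17, 5.92 and 6.19 in SCI and 6.66, 6.59, 6.45 and 6.60 in sham. SCI 3 was low among the injured arrays and the groups did not overlap. It fell by 26.6% (log2 difference -0.45, SE 0.10, adjusted p = 0.014). Cacna2d2, the other subunit that gabapentin binds (probe set 17847397), read 5.78, 5.70, 5.83 and 6.17 in SCI and 6.33, 6.23, 6.19 and 6.25 in sham, with SCI 4 just under the lowest sham array. Its difference of -0.38 (SE 0.11, adjusted p = 0.047) passed only narrowly. The call was lost without any 1 array other than SCI 4, with adjusted p over the 8 such fits of 0.0087 to 0.13, and the adjusted p was 0.17 with the title number as covariate. Cacna2d4, dim on these arrays, differed by 0.27 (95% interval -0.10 to 0.63).

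**Figure D2:**
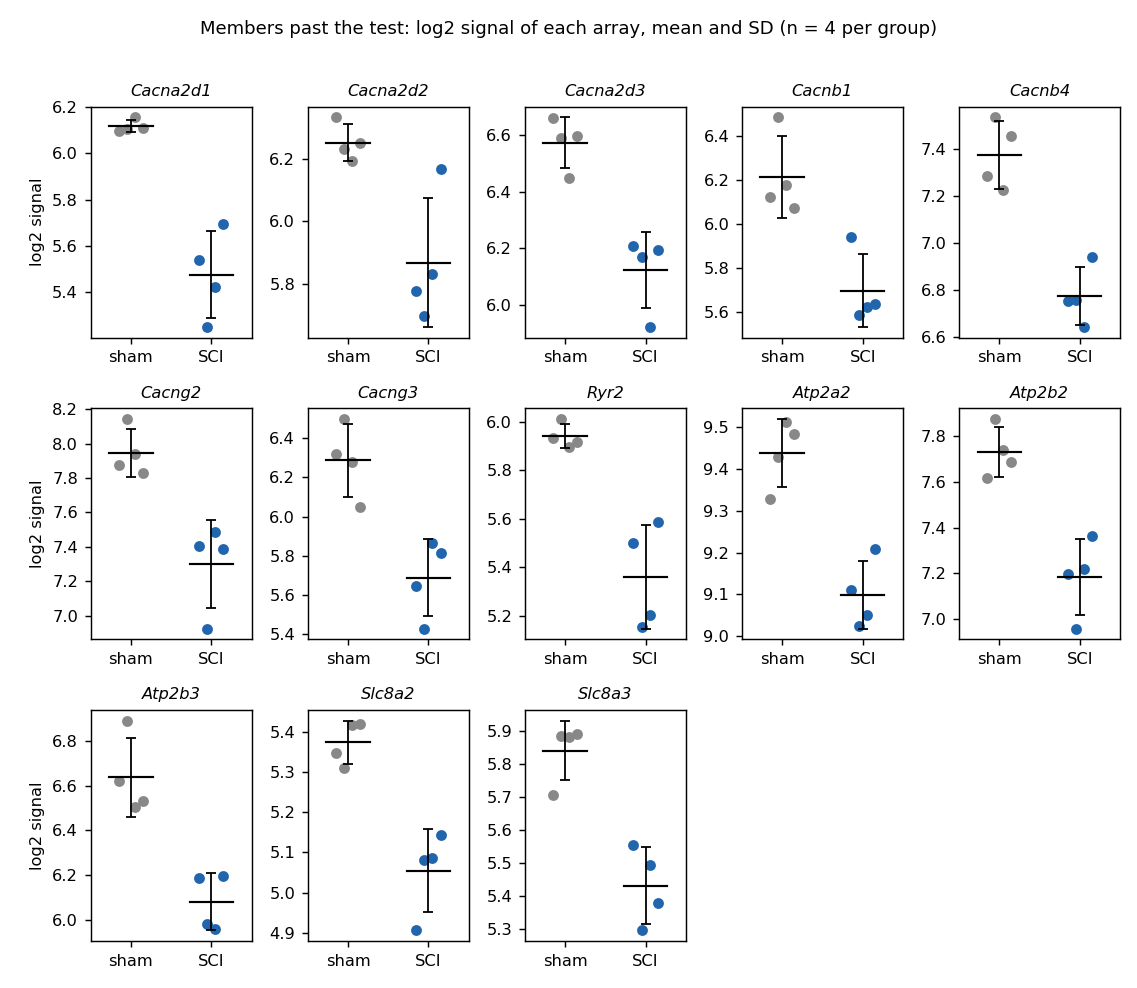
Log2 signal of each array (points) for the 13 members past the test, grey for the 4 sham arrays and blue for the 4 SCI arrays, with the group mean and SD. Each panel has its own vertical scale, which does not start at 0. In every panel all injured arrays lie below all sham arrays.

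Beta subunits bind the pore inside the cell. Cacnb4, a neuronal beta subunit (probe set 17772305), read 6.76, 6.76, 6.64 and 6.94 in SCI and 7.29, 7.54, 7.23 and 7.46 in sham. The groups were clearly parted, and Cacnb4 fell by 34.1% (log2 difference -0.60, SE 0.11, adjusted p = 0.0044). Cacnb1 (probe set 17660702), the beta subunit also used by skeletal muscle, read 5.94, 5.59, 5.62 and 5.63 in SCI and 6.12, 6.49, 6.18 and 6.07 in sham. SCI 1 stood above the other injured arrays yet below all sham arrays, and the difference was -0.52 (SE 0.12, adjusted p = 0.018). Without SCI 2 the adjusted p was 0.056. Cacnb2 differed by -0.25 (adjusted p = 0.15) and Cacnb3 by 0.22 (adjusted p = 0.41), with intervals of -0.48 to -0.02 and -0.11 to 0.55.

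Of 7 gamma genes, 2 were lower (28.6%, against 7.06% of all genes) and 0 higher. Cacng2, or stargazin (probe set 17838973), which traffics AMPA receptors to the synapse, read 7.41, 6.92, 7.49 and 7.39 in SCI and 7.87, 8.14, 7.94 and 7.83 in sham. SCI 2 was the lowest and no injured array reached a sham array. The fall of 36.0% was the largest among the members (log2 difference -0.64, SE 0.14, adjusted p = 0.0099, and 0.054 with the title number as covariate). Cacng3, a relative with the same role (probe set 17620414), read 5.65, 5.43, 5.87 and 5.81 in SCI and 6.32, 6.50, 6.28 and 6.05 in sham, and again SCI 2 was lowest. Its difference was -0.60 (SE 0.13, adjusted p = 0.011, and 0.052 with the covariate).

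The remaining gamma genes did not pass. Cacng7, which also attends AMPA receptors, read 8.84, 8.63, 8.77 and 9.14 in SCI and 9.26, 9.18, 9.15 and 9.15 in sham. SCI 4 lay just under the lowest sham array, and the difference of -0.34 (SE 0.12) had an adjusted p of 0.079. Without SCI 4 the adjusted p was 0.016, and the gene also passed with dim genes left out (0.027) and with the trended, robust prior (0.016). Its relative Cacng5 differed by -0.34 (95% interval -0.76 to 0.08) and the AMPA receptor partner Cacng4 by 0.21 (-0.08 to 0.51). The 2 relatives known from skeletal muscle, Cacng1 and Cacng6, differed by -0.18 and 0.14, with adjusted p of 0.41 and 0.38. Of 8 skeletal muscle markers, 0 were called by limma, 1 had an unadjusted p under 0.05 (Tnnc2, lower) and the summed signals overlapped (324 to 364 in SCI, 309 to 367 in sham). Most of these sums came from 1 bright marker, Pygm (mean log2 signal 7.94 in SCI and 7.82 in sham), so they say little of the others.

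Release channels of the endoplasmic reticulum held a single call. Ryr2, the ryanodine receptor of heart and brain (probe set 17716433), read 5.50, 5.15, 5.20 and 5.59 in SCI and 5.94, 6.01, 5.90 and 5.92 in sham. The injured arrays formed a high and a low pair, both below sham. The gene fell by 33.1% (log2 difference -0.58, SE 0.12, adjusted p = 0.0073). Ryr3 had groups that did not overlap but a small difference of -0.13 (SE 0.09, adjusted p = 0.41). Ryr1, the skeletal muscle form, differed by 0.04 (95% interval -0.18 to 0.26), and its sign turned in some alternative fits. Ryr1 and Ryr3 both lay below the median level of all genes.

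The 3 IP3 receptors, which open on a second messenger of surface receptors, had positive differences and 0 calls by limma, also at an unadjusted p under 0.05. Itpr2, the isoform of glia, read 6.43, 6.37, 6.20 and 6.49 in SCI and 6.25, 6.23, 6.10 and 6.10 in sham. SCI 3 lay within the sham range and the other injured arrays above it, with a difference of 0.20 (SE 0.10, adjusted p = 0.24). Itpr3 differed by 0.21 (95% interval -0.08 to 0.50) and Itpr1, the main neuronal isoform, by 0.07 (-0.12 to 0.26).

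Store-operated entry genes had differences above 0 in 4 of 5 cases, as had 8710 of all 18166 genes. Their median was 0.26, and none passed over all genes. Orai1, the pore of store-operated entry in lymphocytes and other cells (probe set 17677875), read 5.09, 5.50, 5.02 and 5.17 in SCI and 4.82, 4.85, 5.05 and 4.37 in sham. Only SCI 3 and sham 3 crossed. The difference of 0.42 (SE 0.16, 95% interval 0.08 to 0.77) was the highest among the members, at an adjusted p of 0.10, and it passed with genes below the median level left out (adjusted p = 0.040). Orai3 read 4.60, 4.72, 4.82 and 4.67 in SCI and 4.45, 4.37, 4.65 and 4.13 in sham, with a difference of 0.30 (SE 0.12, adjusted p = 0.13).

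Stim1, the calcium sensor of the store (probe set 17619011), read 6.93, 7.02, 6.96 and 6.97 in SCI and 6.82, 6.77, 6.42 and 6.83 in sham. It was the 1 member whose injured arrays all lay above sham, where 9.36% of all genes do so, and the low value of sham 3 widened the sham spread. The difference was 0.26 (SE 0.11, adjusted p = 0.15). Stim2, the second sensor, differed by -0.09 (95% interval -0.30 to 0.11) and Orai2 by 0.08 (-0.14 to 0.29).

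**Figure D3:**
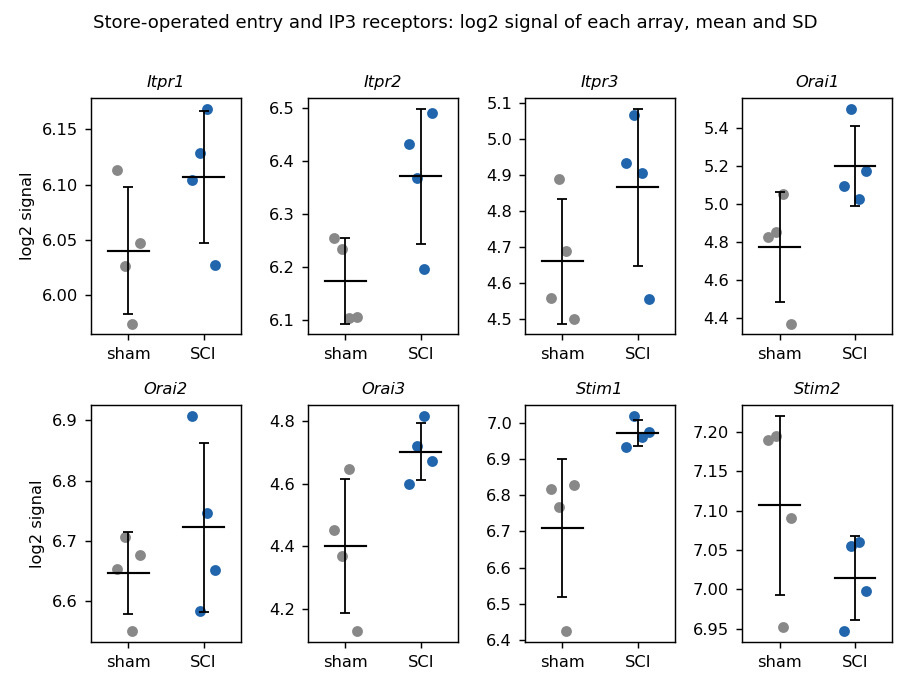
Log2 signal of each array for the 3 IP3 receptors and the 5 store-operated entry genes, grey for sham and blue for SCI, with the group mean and SD (n = 4). Each panel has its own vertical scale, which does not start at 0. In the Stim1 panel alone the groups do not overlap, and none of the 8 passed the test.

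Some clearance genes were lower, among pumps and among exchangers. Of 9 measured, 5 were lower by limma (55.6%, against 7.06% of all genes) and 0 higher. At an unadjusted p under 0.05, 0 were higher, and the median was -0.32. Of the 5, only Atp2b2 and Atp2b3 kept their call whichever 1 array was left out. Atp2a2, the SERCA pump of most cells (probe set 17673962), read 9.11, 9.03, 9.05 and 9.21 in SCI and 9.33, 9.43, 9.51 and 9.48 in sham. The groups did not overlap, and the gene fell by 20.9% (log2 difference -0.34, SE 0.09, adjusted p = 0.031). This call was lost without any 1 array other than SCI 4 and sham 1 (adjusted p of 0.029 to 0.087 over the 8 fits) and with the title number as covariate (0.16). Atp2a3, a SERCA pump best known from blood cells and epithelia, was dim and differed by -0.19 (95% interval -0.47 to 0.08).

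Among plasma membrane pumps, the isoforms found mainly in neurons were lower. Atp2b2 (probe set 17793891) read 7.20, 6.96, 7.22 and 7.36 in SCI and 7.62, 7.88, 7.74 and 7.69 in sham, and Atp2b3 (probe set 17875021) read 6.19, 5.98, 5.96 and 6.20 against 6.62, 6.89, 6.51 and 6.53. In both genes sham 2 was the highest array and no injured array reached sham. Atp2b2 fell by 31.6% (log2 difference -0.55, SE 0.11, adjusted p = 0.0079, and 0.056 with the title number as covariate). Atp2b3 fell by 32.0% (log2 difference -0.56, SE 0.11, adjusted p = 0.0089). The widely expressed pumps Atp2b1 and Atp2b4 differed by -0.12 (95% interval -0.32 to 0.08) and -0.02 (-0.24 to 0.19).

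Exchangers expel calcium against the inward flow of sodium. Slc8a3 (probe set 17822992), of brain and skeletal muscle, read 5.56, 5.30, 5.49 and 5.38 in SCI and 5.70, 5.89, 5.88 and 5.89 in sham. Sham 1 was low in its group and still above the injured arrays, and the difference was -0.41 (SE 0.10, adjusted p = 0.018), with 0.058 without SCI 2, 0.052 without sham 4 and, where the title number was a covariate, 0.094. Slc8a2, the exchanger of brain (probe set 17613601), read 4.91, 5.08, 5.09 and 5.14 in SCI and 5.35, 5.31, 5.42 and 5.42 in sham. The groups did not overlap, and the difference was -0.32 (SE 0.09, adjusted p = 0.040), a call that was lost without any 1 array other than SCI 4 (adjusted p of 0.042 to 0.11 over the 8 fits) and with the title number as covariate (0.20). Slc8a1, the form of heart and many other tissues, differed by 0.09 (95% interval -0.16 to 0.34).

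Whether related members changed unequally was tested in 14 pairs, each within a class except the L-type pore Cacna1c with the N-type pore Cacna1b, on the log2 difference between their signals within each array. The levels of the genes of a pair were not compared. The exact two-sided permutation test over 70 assignments of the arrays gave its smallest possible p of 0.029 in 7 pairs, and the adjusted p over the 14 pairs was then 0.057, so 0 pairs passed. At this size, 9 pairs at the smallest p would be needed. By limma on the same 14 differences, an alternative chosen after seeing the data, 8 pairs had an adjusted p under 0.05.

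Ryr1 minus Ryr2 was -1.42 ± 0.27 in SCI and -2.04 ± 0.07 in sham (log2, SD, n = 4). The shift of 0.62 (95% interval 0.35 to 0.89) was the largest of the 14, since Ryr2 was lower and Ryr1 nearly level. Ryr3 minus Ryr2 shifted by 0.46 (0.21 to 0.70). Ryr1 (mean over all arrays 3.92) and Ryr3 (4.62) lay below the median level of 4.74, where RMA compresses differences, and Ryr2 (5.65) above it. The part of this compression in the shifts of both pairs was not tested. The plasma membrane pumps shifted against Atp2b2, by 0.53 for Atp2b4 (95% interval 0.27 to 0.79) and 0.43 for Atp2b1 (0.20 to 0.66). Slc8a1 minus Slc8a2 shifted by 0.41 (0.17 to 0.65). Each of these pairs had an exact p of 0.029.

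Stim1 minus Stim2 read -0.01, -0.04, -0.10 and -0.02 in SCI 1 to SCI 4 and -0.37, -0.43, -0.53 and -0.26 in sham 1 to sham 4. All injured arrays lay above all sham arrays, and the shift was 0.35 (95% interval 0.13 to 0.58), although neither gene passed by itself. Cacna2d1 minus Cacna2d2 shifted by -0.26 (95% interval -0.48 to -0.03), with groups that all but touched (-0.47 to -0.24 in SCI, -0.24 to -0.04 in sham). These pairs too had an exact p of 0.029. Cacnb2 minus Cacnb4 shifted by 0.35 (exact p = 0.057, adjusted 0.10), with the groups overlapping.

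The other 6 pairs passed neither test. Orai1 minus Orai2 shifted by 0.35 (exact p = 0.14, adjusted 0.22), with an interval of 0.00 to 0.70. Orai1 minus Orai3 shifted by 0.12 (95% interval -0.14 to 0.38) and Atp2a2 minus Atp2a3 by -0.15 (-0.45 to 0.16). Against Itpr1, Itpr2 shifted by 0.13 (-0.11 to 0.37) and Itpr3 by 0.14 (-0.13 to 0.40). Cacna1c minus Cacna1b shifted by -0.04 (-0.33 to 0.26).

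**Figure D4:**
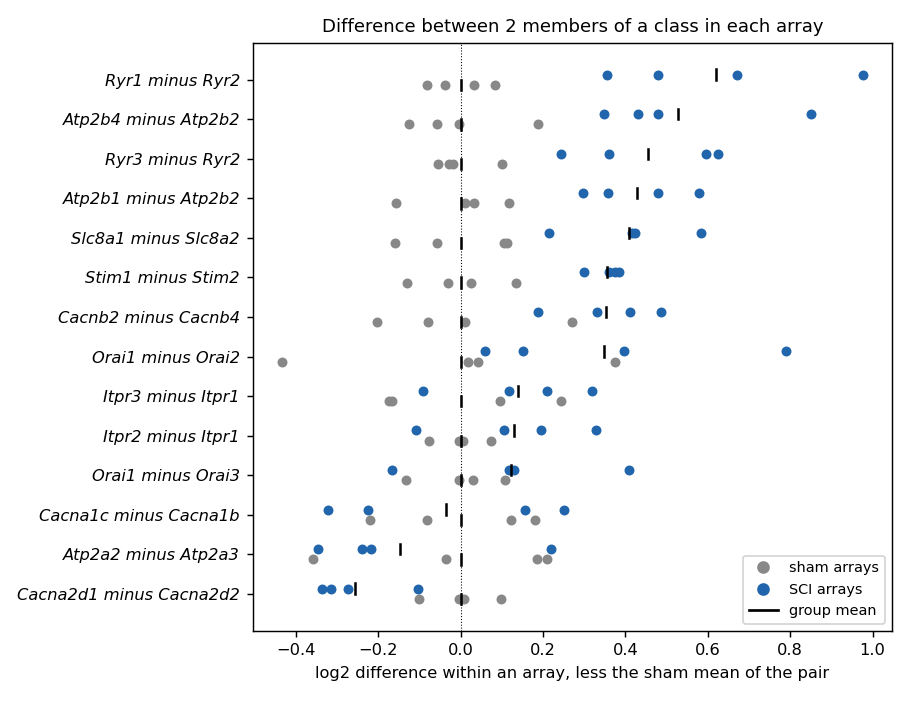
Within-array difference in log2 signal between the genes of a pair, less the sham mean of that pair (horizontal axis), for 14 pairs. Points are arrays, grey for sham and blue for SCI, and short black lines are group means. By its SCI mean, Ryr1 minus Ryr2 lies highest at 0.62, and Cacna2d1 minus Cacna2d2 lies lowest at -0.26.

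The sequence before a gene holds its core promoter, and 4 are shown, chosen after the values and sequences were seen: the AMPA receptor partners and the ryanodine receptor among the lower members, and the store-operated pore with the highest difference. Sequences are from RefSeq on the GRCr8 assembly, 250 bases before to 50 after the gene's start, written 5′ to 3′ along the gene. Capitals mark matches, on either strand, to GGGCGG (the GC box), CCAAT (the CCAAT box, bound by NF-Y), TATAAA (the TATA box), TGACG (the core of the cAMP response element) or TTCAGCACC, the first part of the element bound by the neuronal repressor REST. The last motif was added after the Cacng3 sequence had been seen. Cacng2 lies at chr7:111577708-111578007 on the minus strand, Cacng3 at chr1:186632312-186632611 on the plus strand, Ryr2 at chr17:63081277-63081576 on the plus strand and Orai1 at chr12:39208981-39209280 on the minus strand.
Cacng2: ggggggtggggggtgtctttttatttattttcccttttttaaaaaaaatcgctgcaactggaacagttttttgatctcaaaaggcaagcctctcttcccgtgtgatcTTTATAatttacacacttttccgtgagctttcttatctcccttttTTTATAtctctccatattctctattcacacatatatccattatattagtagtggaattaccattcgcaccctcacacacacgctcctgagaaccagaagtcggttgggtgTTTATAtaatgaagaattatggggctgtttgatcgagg
Cacng3: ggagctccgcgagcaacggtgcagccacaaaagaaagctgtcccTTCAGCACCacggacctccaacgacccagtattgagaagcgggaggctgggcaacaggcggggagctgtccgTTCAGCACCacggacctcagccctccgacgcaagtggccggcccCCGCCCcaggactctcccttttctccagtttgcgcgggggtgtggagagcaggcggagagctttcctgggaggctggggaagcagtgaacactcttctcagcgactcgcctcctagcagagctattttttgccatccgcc
Ryr2: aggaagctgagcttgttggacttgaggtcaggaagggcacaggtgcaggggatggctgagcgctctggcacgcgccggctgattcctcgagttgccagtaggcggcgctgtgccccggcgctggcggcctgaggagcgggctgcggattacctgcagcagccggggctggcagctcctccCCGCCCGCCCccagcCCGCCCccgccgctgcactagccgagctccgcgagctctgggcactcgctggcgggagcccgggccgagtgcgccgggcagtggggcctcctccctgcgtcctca
Orai1: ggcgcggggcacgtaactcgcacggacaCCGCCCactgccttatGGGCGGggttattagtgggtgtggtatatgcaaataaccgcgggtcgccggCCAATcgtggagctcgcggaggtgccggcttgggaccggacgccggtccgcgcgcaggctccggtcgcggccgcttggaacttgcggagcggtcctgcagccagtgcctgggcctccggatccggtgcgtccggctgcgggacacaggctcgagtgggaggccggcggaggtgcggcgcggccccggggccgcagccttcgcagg

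The AMPA receptor partners differed in their promoters. That of Cacng2 held 39% G and C and 3 matches to TATAAA on the reverse strand, a motif found in 14.2% of 33469 rat promoters of this length, and no other motif searched. That of Cacng3 held 63% G and C, 1 match to GGGCGG and 2 to TTCAGCACC, which 0.356% of all promoters hold. Ryr2, at 73% G and C, held 3 matches to GGGCGG, 2 of them overlapping, and Orai1, at 72.3%, held 2 and 1 CCAAT.

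Promoters were matched for 33 of the 44 members, 10 of them among the 13 lower ones. GGGCGG was found in 8 of these 10, in 16 of the other 23 members and in 33.1% of all promoters. Members were counted by gene, with a match in any promoter of the gene, and Cacna2d1, Cacnb2 and Ryr3 had more than 1. The shares of all promoters were counted by promoter, an unlike unit. CCAAT was found in 2 of 10 and 12 of 23 (37.5% of all promoters) and TGACG in 1 of 10 and 4 of 23 (21.2%). TATAAA and TTCAGCACC were each found in 1 of 10 and 0 of 23. The TTCAGCACC match, in Cacng3, had been seen before that motif was added, so its presence among the 10 was fixed in advance. The median G and C content was 73.5% in the 10 and 71.7% in the 23, against 51.7% over all promoters. A match describes the letters and shows no binding.

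Other genes of calcium handling, outside the families above, were taken from a list of 77, of which 69 were tested. By limma 14 were lower, or 20.3% against 7.06% of all genes, and 5 were higher, or 7.25% against 7.10%, so the higher share was that of all genes. The median difference was -0.13. Without SCI 3, sham 1 and sham 2, 0 of the lower and 3 of the higher calls were left (Mcoln3, Tpcn2 and Rcan1). With the title number as covariate, 5 lower calls (Jph3, Calb2, Ncs1, Camk2b and Camkk1) and 2 higher ones (Mcoln3 and Slc8b1) were left, so that Tpcn2 (adjusted p = 0.082) and Rcan1 (0.073) passed in the first of these settings and not in the other. Apart from these 7, the calls given below were lost with the covariate (adjusted p of 0.051 to 0.24).

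Cytosolic buffers and sensors were mostly lower, 6 of 8 (75%, against 7.06% of all genes, median -0.49). Calb2, or calretinin, a buffer of interneurons, read 7.37, 7.04, 7.68 and 7.52 in SCI and 8.22, 8.20, 8.02 and 8.06 in sham. The groups did not overlap, and the difference was -0.72 (adjusted p = 0.0055). The neuronal sensor Vsnl1 was lower by a log2 difference of -0.60 (adjusted p = 0.0072), the interneuron buffer Pvalb by -0.69 (0.016), the sensor Ncs1 by -0.54 (0.017), the sensor Hpca by -0.43 (0.035) and the calmodulin gene Calm2 by -0.37 (0.035). Without SCI 2 the adjusted p of Pvalb was 0.050 and that of Ncs1 0.056. Hpca and Calm2 lost their calls without 6 and 7 of the 8 arrays in turn.

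Endolysosomal channels, which release calcium from acidic organelles, held 2 higher genes of 5 (40%, against 7.10% of all genes) and 0 lower. Mcoln3 read 5.91, 6.12, 5.92 and 6.10 in SCI and 3.86, 3.40, 3.90 and 3.18 in sham. The groups lay far apart, and its difference of 2.43 (SE 0.16, adjusted p = 1.5e-05) was the largest in either direction among the 69. Tpcn2 differed by 0.56 (adjusted p = 0.013).

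Mitochondrial genes held 3 lower and 1 higher of 10 (30% and 10%, against 7.06% and 7.10% of all genes). The exchanger Slc8b1, which carries calcium out of mitochondria, read 5.36, 5.90, 5.64 and 5.49 in SCI and 4.95, 4.76, 4.85 and 5.06 in sham. It was thus higher in every injured array, by 0.69 (SE 0.13, adjusted p = 0.0053). Of its plasma membrane relatives, Slc8a2 and Slc8a3 were lower and Slc8a1 differed by 0.09 (adjusted p = 0.69). Micu3, a regulator of mitochondrial uptake in neurons, differed by -0.55 (adjusted p = 0.011), the outer membrane channel Vdac3 by -0.42 (0.013) and the inner membrane protein Letm1 by -0.34 (0.046). Letm1 lost its call without 7 of the 8 arrays in turn.

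Of 6 other exchangers and Golgi pumps, the neuronal potassium-dependent exchanger Slc24a2 was lower (16.7%, against 7.06% of all genes) and 0 were higher. Slc24a2 read 7.83, 8.44, 8.61 and 8.89 in SCI and 9.24, 9.42, 9.56 and 9.39 in sham, a difference of -0.96 (SE 0.19, adjusted p = 0.0077). SCI 1 was the lowest array. Of 18 store and junction proteins, Jph3, which tethers the store to the plasma membrane in neurons, was lower (difference -0.76, SE 0.15, adjusted p = 0.0070) and 0 were higher. This lower share of 5.56% was below the 7.06% of all genes.

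Among 22 effectors, 3 were lower and 2 higher. Camkk1, a calmodulin-dependent kinase, differed by -0.75 (adjusted p = 0.0053), Camk2b, a synaptic one, by -0.49 (0.010) and Ppp3cb, a calcineurin subunit, by -0.39 (0.024, lost without 5 of the 8 arrays in turn). Rcan1, a regulator of calcineurin, was higher by 0.54 (adjusted p = 0.011). Gem, a small GTPase that inhibits voltage-gated calcium channels, read 4.96, 5.15, 5.44 and 5.02 in SCI and 4.62, 4.68, 4.74 and 4.32 in sham. Its difference was 0.55 (adjusted p = 0.020), a call lost without SCI 2 or sham 4.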

How the data were processed

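The deposited values are log2 signals of 36685 probe sets on 8 arrays, made by the authors with Affymetrix Expression Console and RMA, per the submitters' processing notes. As a method, RMA corrects background, normalizes between arrays and summarises probes. For versions, settings, probe library and genome build the status was "not given in the sources used here". That the logarithm has base 2 rests on RMA and on the range of the values. RMA compresses differences of dim probe sets. The labels tie no array to a numbered animal and speak of 10 rats, so p-values measure the spread between these samples, which may be technical. The 4 arrays a group limit the precision.

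The platform annotation gave 1 symbol to 18511 probe sets, several to 575 and none here to 17599. By gene ID, 18394 matched RefSeq GRCr8, and 0 symbols changed. For 291 genes with several probe sets the one with the highest mean was used. The fit used R 4.3.3 and its limma package 3.58.1 (lmFit, then eBayes, with no covariate) on all 18166 genes, tested on simulated data beforehand, with Benjamini-Hochberg adjustment and calls at an adjusted p under 0.05. For pairs of members the test was a two-sided exact permutation of the arrays (Python 3.11.15). Replicate numbers follow the order of the sample list and pair no samples. Members and lists were chosen with earlier results of these data known. Every member is named. Values per array are given for members past the test and for the one with the smallest p in each class without a call, and those of Cacng7, Orai3 and Stim1 were added after their values were seen. Of the related list, genes past the test are named. Alternatives were median centring, quantile normalization, other probe set rules, a filter on dim genes, a trended and robust prior, array weights, the sample number in the title as covariate, and arrays left out, 1 at a time or SCI 3, sham 1 and sham 2 together, a set taken from an earlier analysis of these data.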

Additional observations from a re-analysis of the deposited data

Results flagged for a closer look

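In 5 of 88 groups of 4 arrays, 1 array stood apart from the other 3 by more of the group's range than Dixon's critical value allows, which chance gives in about 1 of 20 groups. Cacna2d3 read 5.92 in SCI 3, where the other injured arrays read 6.17 to 6.21 (a gap of 0.864 of the range). Cacnb1 read 5.94 in SCI 1 against 5.59 to 5.63 in the other injured arrays (0.864). Cacng4 read 7.03 in SCI 4 against 6.49 to 6.57 (0.857). Among sham arrays, Stim1 read 6.42 in sham 3 against 6.77 to 6.83 (0.847), and Slc8a3 read 5.70 in sham 1 against 5.88 to 5.89 (0.959). Of these genes, Cacna2d3, Cacnb1 and Slc8a3 are among the 13 lower members, and in each the array that stood apart lay on its own group's side.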

How the results depend on the processing

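None of the 13 lower members changed direction under any alternative run. Over the alternatives that gave a value for a member (the filter on dim genes gave none for 13 members, and the exact test was run on the 13 called), 686 values kept their direction and side of the threshold, 44 lost a call, 7 gained one and 11 changed sign. The 686 overstate stability. Each member has 1 probe set, so the other probe set rules could not change its difference. The exact test was judged by its unadjusted p, which is 0.029 wherever the groups do not overlap. Many of the kept values belong to members that the main fit did not call, and all 44 lost calls to the 13 that it did. The count of lower members was 6 with the title number as covariate, 0 without SCI 3, sham 1 and sham 2, and 8 to 14 without any 1 array. With dim genes left out, 1 member was higher. Of the related calcium genes, 2 were higher and 5 lower with the covariate, 3 and 0 without the 3 arrays, and 4 to 6 and 8 to 15 without any 1 array. With the trended, robust prior 22 were lower. Over all genes, 813 were higher and 543 lower with the covariate, 563 and 284 without the 3 arrays, and 923 to 1257 and 780 to 1283 without any 1 array. By limma, 8 pair contrasts passed. Members near 0 changed sign: Cacna1h was 0.044 without the 3 arrays and -0.15 to 0.028 without any 1 array. Ryr1 was -0.012 after quantile normalization, -0.026 with the covariate and -0.0095 to 0.075 without any 1 array. Atp2b4 was 0.0025, 0.064 and -0.079 to 0.027 under the same settings. Cacna1f was -0.059 to 0.11 without any 1 array. The pair Atp2a2-Atp2a3 was 0.093 with the covariate, and the pair Cacna1c-Cacna1b was 0.080 without the 3 arrays and -0.13 to 0.060 without any 1 array. Higher genes made up 50.2% of all calls, 42.0% after median centring, 43.0% with dim genes left out, 60.0% with the covariate and 66.5% without the 3 arrays. The cause of these changes was not tested, and neither was the part of the smaller number of arrays in them. Counts of pairs by the exact test were not run without arrays, since 4 arrays against 3 cannot go below 0.057. No paired analysis was possible because the replicate numbers were given in list order and pair no samples.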
